A study of Mus musculus with 4 samples.

Results

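The fibroblast growth factor (FGF) receptor family comprised 5 genes in these data, Fgfr1, Fgfr2, Fgfr3, Fgfr4 and Fgfrl1, of 29875 gene names on the array. Members were all non-control probes that the array annotation assigns to one of these genes, which gave 11 probes of 39429, each kept apart. Total RNA came from ureters dissected from NMRI mouse embryos at stage E14.5, mid to late gestation. The mutant, Fgfr1/2cDKO (cDKO below), was Tbx18(cre/+) together with Fgfr1(fl/fl) and Fgfr2(fl/fl), and the control was Fgfr1(fl/?) and Fgfr2(fl/?), so that both groups carried at least 1 loxP-flanked (fl) allele of each receptor gene and the second control allele was not given. On each of 4 two-colour Agilent arrays a cDKO sample was hybridised against a control sample of the same sex label, with cDKO in Cy5 on replicates 1 and 3 and in Cy3 on replicates 2 and 4. Replicates 1 and 4 were labelled female and replicates 2 and 3 male.

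Cre in this line is driven from the Tbx18 locus, which is active in the mesenchyme around the ureter, so the urothelium that lines the tube is not its target and keeps both receptor genes. Whole ureters were profiled, and in bulk RNA fewer cells of a type and less RNA per cell cannot be told apart. The cDKO embryos also carried 1 Tbx18 allele with a Cre insertion, which the control genotype does not name, and an effect of that allele cannot be told apart from an effect of the receptor deletions. The labels do not say whether a sample was 1 embryo or a pool, so the spread between these 4 pairs of samples may be partly technical. Pairs of different sex labels hold different samples by those labels, but the spread between pairs of 1 sex label may be wholly technical. P-values of the main test rest on the spread between all 4 pairs and on a variance estimate shared over all kept probes.

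FGF receptors are single-pass transmembrane tyrosine kinases. An FGF ligand, held by heparan sulfate or a Klotho co-receptor, brings receptor molecules together, and the activated kinases signal through adaptors such as Frs2 to the RAS-MAPK and PI3K pathways. In many developing organs the IIIb splice form of Fgfr2 is made in epithelium and the IIIc forms of Fgfr1 and Fgfr2 in mesenchyme; Fgfrl1 binds ligands but lacks the kinase domain. The arrays asked how transcripts of the ureter differ when both receptor genes are targeted in the mesenchyme, and the family's own probes show what was measured of the targeted genes and of the receptors left intact.

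The position of each probe decides what it can show. Neither the labels nor the file headers name the exons between the loxP sites. A probe that lies outside the deleted exons is no check of the deletion. In the mm9 coordinates of the file headers, Fgfr1 probes 1 and 2 lay on the plus strand at chr8:26684061-26684120 (A_55_P1967022) and chr8:26685072-26685131 (A_55_P2057777). They start at bases 2988 and 3906 of the transcript and sample its last part. Fgfr1 had 1 more probe, probe 3 (A_55_P1967015). Fgfr2 had a pair of probes on the minus strand, chr7:137307473-137307532 (probe 1, A_55_P2094881) and chr7:137307455-137307514 (probe 2, A_51_P432403), starting at bases 3630 and 3648 of the transcript. No annotation of this build was used, and exon, intron or UTR status is therefore not given from coordinates.

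Probe 1 of Fgfr1 and the first probes of Fgfr3 and Fgfr4 lie in the conserved sequence coding for the end of the kinase domain, and they are shown because they allow the paralogs to be compared where a shared stretch could matter. Capitals in the Fgfr1 and Fgfr4 lines mark bases identical between them where aligned without gaps, and capitals in the Fgfr3 line mark identity with the Fgfr1 probe.
Fgfr1 probe 1: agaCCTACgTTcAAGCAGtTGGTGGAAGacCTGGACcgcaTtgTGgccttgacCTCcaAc
Fgfr4 probe 1: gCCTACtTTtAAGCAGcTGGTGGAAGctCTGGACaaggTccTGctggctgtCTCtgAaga
Fgfr3 probe 1: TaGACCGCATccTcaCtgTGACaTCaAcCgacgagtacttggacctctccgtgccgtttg
The Fgfr1 and Fgfr4 probes were identical at 35 of 58 aligned bases (60.3%), and the Fgfr1 and Fgfr3 probes at 19 of 29 (65.5%). The coordinates of Fgfr3 probe 1 (A_65_P06147, chr5:34077856-34078090) span 235 bases for 60 bases of probe.

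Fgfr1 probe 2 is rich in A, and a stretch of it is shown for that reason with A in capitals; the Fgfr2 stretch is shown because both Fgfr2 probes contain it.
Fgfr1 probe 2, last 30 bases: tAttAAAAAcAAAcgAAcAgAAAgAAAAAA
Fgfr2 probes 1 and 2, first 30 bases of their shared stretch: ctgcctcagtatccacacataaacggcagt
The stretch of probe 2 is 70.0% A. The Fgfr2 probes overlap by 42 bases, so they are repeat readings of 1 stretch of transcript and not independent evidence.

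Each array held 157716 spots, 4 per probe, and 0 spots were saturated in either channel. The median raw signal ran from 139 to 383 in the cDKO channel and from 169 to 417 in the control channel, and between 64.9% and 72.6% of spots in a channel were well above background by the scanner software's call. Probes entered the test if the cDKO channel, or the control channel, showed 3 or more of their 4 spots well above background on every array, which left 25589 probes. All 5 genes were measured, through 10 of the 11 receptor probes; the exception was Fgfr3 probe 2, with 0 to 2 of 4 spots well above background in each channel of each array. Replicates 1 and 2 were on 1 slide and scanner and replicates 3 and 4 on another. The per-array log2 ratios over all kept probes correlated between 0.014 (replicates 2 and 3) and 0.518 (replicates 1 and 2), given here as a description across probes that share those samples. The number of arrays limits the precision of every value below.

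Differences were tested with limma on log2 ratios of cDKO over control, with the dye orientation in the model and p-values adjusted by Benjamini-Hochberg over all kept probes; a probe was called at an adjusted p under 0.05. Fgfr1 fell in 1 of 3 probes and Fgfr2 rose in 1 of 2, and no probe of Fgfr3, Fgfr4 or Fgfrl1 passed the test. The background was small: 0.406% of all kept probes were called higher in cDKO and 0.234% were called lower. Among the 10 kept receptor probes 4 were higher on every array, 2 were lower on every array and 4 had both signs, while 24.8% of all kept probes had the same sign on every array. Of the receptor probes 6 had an unadjusted p under 0.05, as did 4839 of the 25589 kept probes. The number of calls over the array depended on single arrays: of 164 calls, 0 were made without replicate 1 (1893 probes at an unadjusted p under 0.05), 47 without replicate 2, 7 without replicate 3 and 515 without replicate 4. With a term for slide, which left fewer residual degrees of freedom, 2940 probes were called.

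**Figure D1:**
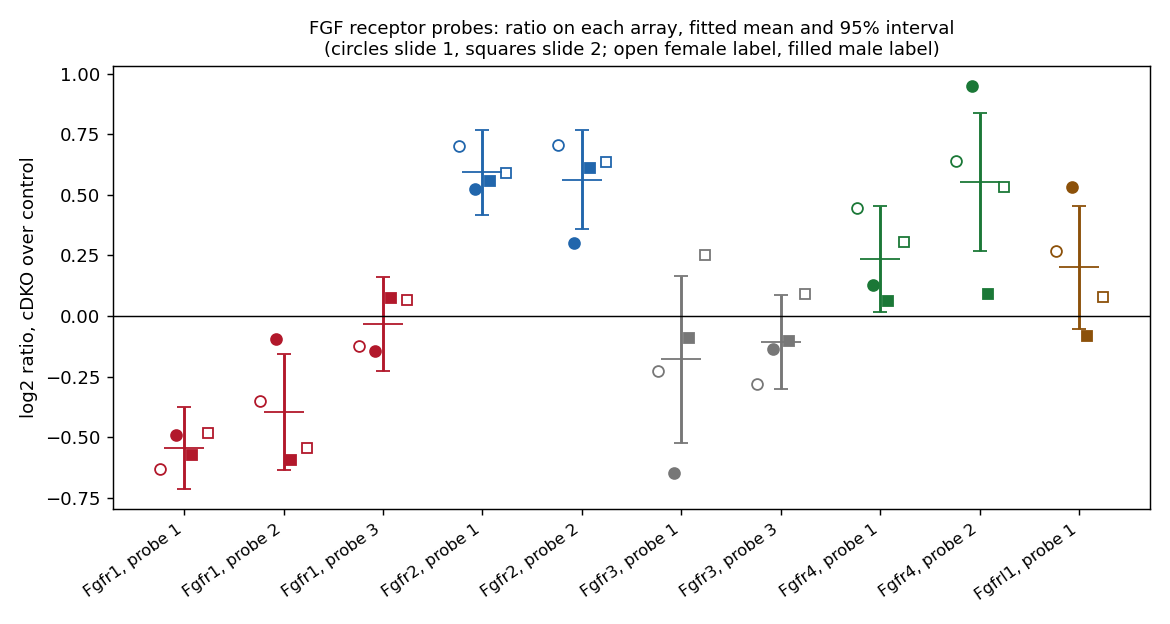
Log2 ratio of cDKO over control (vertical axis) for the 10 kept receptor probes. Each point is 1 array, with circles for slide 1, squares for slide 2, open symbols for a female and filled symbols for a male label; the long horizontal mark is the fitted mean and the bar its 95% interval from limma. All 4 points lie below 0 for Fgfr1 probes 1 and 2 and above 0 for both Fgfr2 probes and both Fgfr4 probes.

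Fgfr1, a receptor of many mesenchymal tissues and the first of the targeted genes, was lower in cDKO by the probe in its coding sequence. For probe 1 the log2 levels in cDKO were 9.56, 9.61, 9.91 and 9.74 on replicates 1 to 4, with a mean of 9.71 ± 0.16 (SD, n = 4). Control levels on the same arrays were 10.19, 10.10, 10.49 and 10.23, with a mean of 10.25 ± 0.16 (SD, n = 4). Every cDKO level lay below every control level. Ratios within each array were -0.63, -0.49, -0.57 and -0.48, so all 4 arrays gave a decrease of similar size. The fitted log2 ratio was -0.54 ± 0.07 (SE; 95% interval -0.71 to -0.38), 0.685-fold of the control, with an adjusted p of 0.0410 by limma. The arrays of slide 1 averaged -0.56 and those of slide 2 averaged -0.53. The call was lost without replicate 1 (adjusted p = 0.289 by limma), replicate 2 (0.0748) or replicate 3 (0.118) and held without replicate 4 (0.0421). Over all settings tried, of which filters and model terms cannot move the ratio, it stayed between -0.61 and -0.53.

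Probe 2, the brightest probe of Fgfr1, had cDKO levels of 14.32, 14.44, 14.32 and 14.17 and control levels of 14.67, 14.54, 14.91 and 14.71. These groups did not overlap either. The ratios were uneven, at -0.35, -0.095, -0.59 and -0.55, and replicate 2 came close to no difference. The fitted log2 ratio was -0.40 ± 0.10 (SE; 95% interval -0.64 to -0.16), with an adjusted p of 0.125, so this probe did not pass. Slide 1 averaged -0.22 and slide 2 averaged -0.57; with slide in the model the adjusted p was 0.0120.

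Fgfr1 probe 3 gave a log2 ratio of -0.032 ± 0.081 (SE; 95% interval -0.23 to 0.16), adjusted p = 0.871. Its cDKO levels were 9.57, 9.60, 9.55 and 9.50 and its control levels 9.70, 9.74, 9.48 and 9.44, which overlap. The sign followed the slide, with -0.12 and -0.14 on slide 1 and 0.072 and 0.066 on slide 2.

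Differences between probes of 1 gene were taken within each array and tested by an exact two-sided permutation test that turns the sign of each array's difference; with 4 arrays its smallest possible p is 0.125, so no pair could pass 0.05. In all, 7 pairs were compared. Probe 1 of Fgfr1 was lower than probe 3 by 0.51 on the log2 scale (SD 0.12, lower in 4 of 4 arrays, exact p = 0.125, 0.292 after adjustment over the 7 pairs). Between probes 2 and 3 the difference was -0.36 (exact p = 0.25, adjusted 0.438), and between probes 1 and 2 it was -0.15 (exact p = 0.5), or -0.066 without replicate 2.

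Fgfr2, the second targeted gene and the main receptor of epithelia through its IIIb form, was higher in cDKO. Probe 1, its brightest, had cDKO levels of 11.13, 11.07, 11.25 and 11.20 (mean 11.16 ± 0.079 SD, n = 4) and control levels of 10.42, 10.55, 10.70 and 10.61 (mean 10.57 ± 0.11 SD, n = 4). All cDKO levels lay above all control levels. The ratios were 0.70, 0.52, 0.56 and 0.59, close to each other on both slides and in both dye orientations. The fitted log2 ratio was 0.59 ± 0.07 (SE; 95% interval 0.42 to 0.77), 1.51-fold of the control, with an adjusted p of 0.0386 by limma. Slide 1 averaged 0.61 and slide 2 averaged 0.57. The call was lost without replicate 1 (adjusted p = 0.287 by limma), replicate 2 (0.0633) or replicate 3 (0.108) and held without replicate 4 (0.0402). Over all settings tried, of which filters and model terms cannot move the ratio, it stayed between 0.56 and 0.63.

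Probe 2 of Fgfr2, which overlaps probe 1, gave ratios of 0.71, 0.30, 0.61 and 0.63. Its cDKO levels were 10.29, 10.09, 10.74 and 10.63 and its control levels 9.58, 9.80, 10.13 and 9.99. Here the groups overlapped, because the control of replicate 3 lay above the cDKO sample of replicate 2, although each array on its own showed the higher level in cDKO. The fitted log2 ratio was 0.56 ± 0.09 (SE; 95% interval 0.36 to 0.77), 1.48-fold, adjusted p = 0.0530, which did not pass. It passed in 5 of 19 other settings: offset 16 (adjusted p = 0.0424), both channels well above background (0.0473), the median of spots (0.0427), no dye term (0.0384) and a slide term (0.00446). It differed from probe 1 by 0.030 on the log2 scale (exact permutation p = 1). Both probes lie in the last part of the transcript and do not separate the IIIb from the IIIc form, which differ in an internal exon.

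The called probes of the targeted genes moved in opposite directions. Set side by side within each array, the brightest Fgfr2 probe (probe 1) exceeded the brightest Fgfr1 probe (probe 2, which was not called) in log2 ratio by 0.99 (SD 0.25, higher in 4 of 4 arrays, exact permutation p = 0.125, adjusted 0.292). The called Fgfr1 probe was not compared with Fgfr2 this way. Levels that do not overlap between groups were seen for 3 of the 10 receptor probes, Fgfr1 probes 1 and 2 and Fgfr2 probe 1, and for 7.57% of all kept probes.

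**Figure D2:**
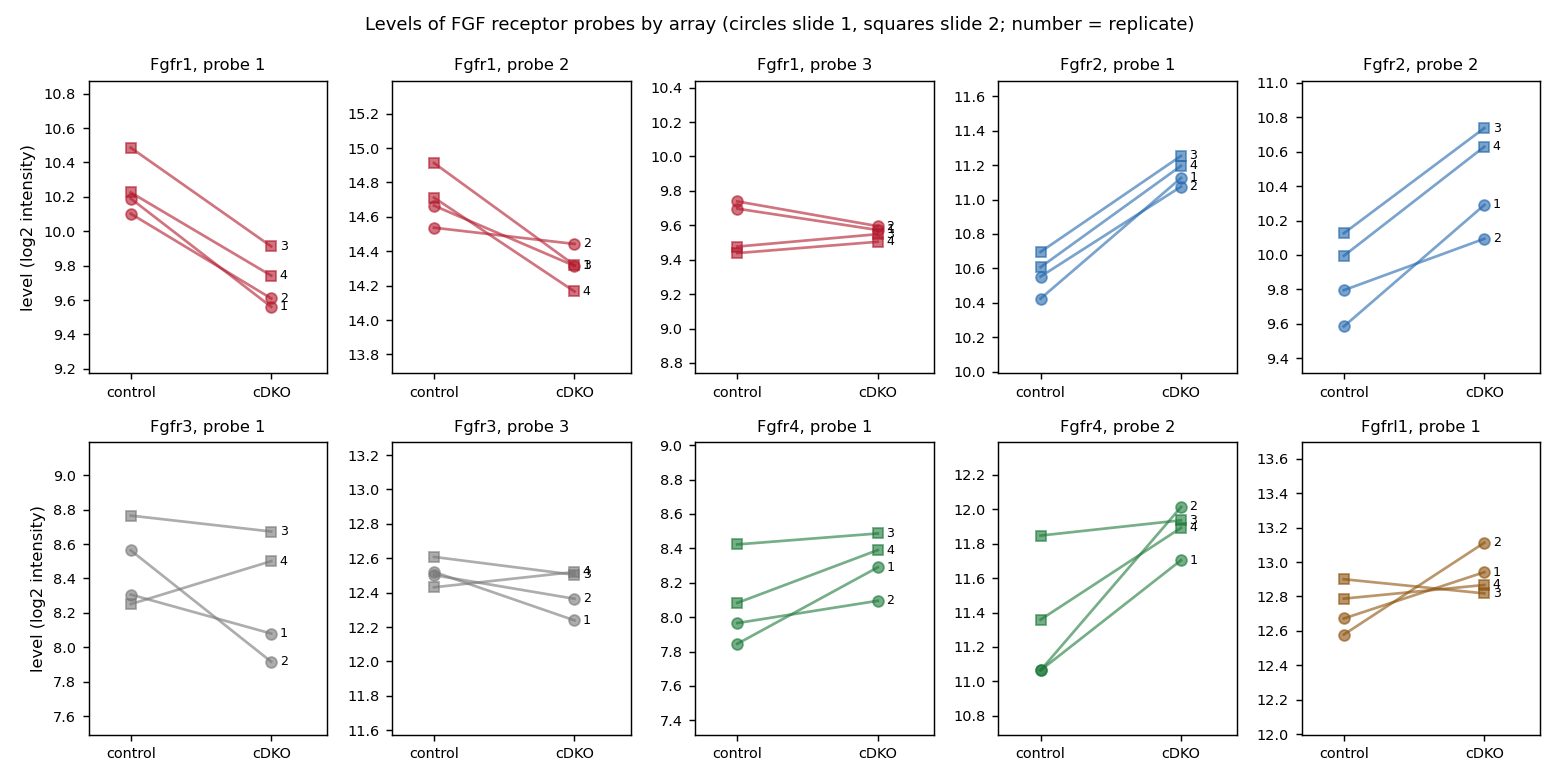
Log2 level after loess within and quantile scaling between arrays (vertical axis, a separate range for each panel) in the control and cDKO channel of each array for the 10 kept receptor probes. A line joins the 2 samples of 1 array, numbered by replicate, with circles for slide 1 and squares for slide 2. Lines fall together for Fgfr1 probe 1, rise together for Fgfr2 probe 1, and cross for Fgfr3 probes 1 and 3; levels of different probes are not comparable.

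Fgfr3, a receptor best known for restraining cartilage growth and for its mutations in urothelial tumours, was measured by probe 1 and by its brightest probe 3 (A_55_P1996578, chr5:34079649-34079708). Probe 3 had ratios of -0.28, -0.14, -0.10 and 0.089, with a fitted log2 ratio of -0.11 ± 0.081 (SE; 95% interval -0.30 to 0.085) and an adjusted p of 0.513. Its cDKO levels were 12.24, 12.36, 12.50 and 12.52 and its control levels 12.52, 12.50, 12.61 and 12.43, with overlap. Probe 1 spread more, at -0.23, -0.65, -0.093 and 0.25, and gave -0.18 ± 0.14 (SE; 95% interval -0.52 to 0.17, adjusted p = 0.547). Its cDKO levels were 8.08, 7.92, 8.67 and 8.50 against control levels of 8.31, 8.56, 8.77 and 8.25. The ratio of probe 1 differed from that of probe 3 by -0.071 (exact permutation p = 1). Replicate 4 was the only array with a higher cDKO value at both probes. The interval of probe 3 leaves room for a decrease to 0.30 below the control on the log2 scale, so no change was detectable here rather than shown to be absent. Fgfr3 probe 2 (A_55_P2150422, chr5:34074696-34074755) was not well above background in either group and is given no fold. The RefSeq gene table used for names also lists a pseudogene, Fgfr3-ps, and signal from that copy could not be separated here.

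Fgfr4, a receptor with a strong role in liver and in muscle progenitors, had higher values in cDKO on every array without passing the test. Its brightest probe, probe 2 (A_55_P2120055, chr13:55270033-55270092), had cDKO levels of 11.70, 12.01, 11.94 and 11.89 (mean 11.89 ± 0.13 SD, n = 4). Control levels were 11.06, 11.06, 11.85 and 11.36 (mean 11.33 ± 0.37 SD, n = 4). The control sample of replicate 3 stood near the cDKO samples and above 1 of them, so the groups overlapped. Ratios were 0.64, 0.95, 0.089 and 0.53, and the fitted log2 ratio was 0.55 ± 0.12 (SE; 95% interval 0.27 to 0.84), 1.47-fold, adjusted p = 0.0970. The slides differed, with 0.79 on slide 1 and 0.31 on slide 2; the adjusted p of the slide term over all probes was 0.187. Within slide 1 alone the adjusted p was 0.0216, within slide 2 alone 0.789, and with slide in the model 0.00298. Probe 1 (A_55_P2121871, chr13:55269212-55269271) gave ratios of 0.44, 0.13, 0.064 and 0.31, a fitted log2 ratio of 0.24 ± 0.091 (SE; 95% interval 0.018 to 0.45) and an adjusted p of 0.237. Both probes had their smallest ratio on replicate 3, and probe 1 was below probe 2 by 0.32 (lower in 4 of 4 arrays, exact permutation p = 0.125, adjusted 0.292), a difference of -0.32 that moved to -0.15 without replicate 2. The Fgfr4 and Fgfr1 probes aligned above, with 60.3% identity, had ratios of opposite sign on all 4 arrays. Whether either probe also takes up transcript of the other gene was not tested.

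Fgfrl1, the family member without a kinase domain, is required for formation of the metanephric kidney and is often described as a decoy. Its probe (A_55_P2152872, chr5:109135855-109135914) had cDKO levels of 12.94, 13.11, 12.82 and 12.87 and control levels of 12.67, 12.58, 12.90 and 12.79. The groups overlapped on slide 2. Ratios were 0.27, 0.53, -0.082 and 0.079, with a fitted log2 ratio of 0.20 ± 0.11 (SE; 95% interval -0.055 to 0.45) and an adjusted p of 0.360. Slide 1 averaged 0.40, while on slide 2 the arrays had opposite signs.

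Sex labels, slides and dyes were also examined for the receptor probes. A slide term in limma called 228 of the 25589 probes (3652 at an unadjusted p under 0.05). In that same fit genotype called 2940 probes, against 164 in the reported fit, which had no slide term. For the receptor probes the adjusted p of the slide term lay between 0.187 and 0.943. Fits with a slide or sex term had fewer residual degrees of freedom than the reported fit. A sex term in limma called 0 of the 25589 probes (257 at an unadjusted p under 0.05), receptor probes included. For Fgfr2 probe 1 the arrays labelled female averaged 0.65 and those labelled male 0.54, and for Fgfr1 probe 1 they averaged -0.56 and -0.53. The dye term called 0 probes (2174 at an unadjusted p under 0.05), with adjusted p between 0.695 and 0.989 for the receptor probes. Among the 4 spots of a receptor probe the log2 ratio had an SD between 0.021 and 0.18 with a median of 0.060.

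Cell type markers were read beside these results, since receptor levels in whole ureters depend on which cells are present. All 25 urothelial and epithelial markers were measured, and 14 of 15 markers of ureteric mesenchyme, while 64.9% of all probes on the array were kept. Being measured does not by itself identify the tissue, as most markers of the other cell types below were measured too. Of the epithelial markers 2 fell, Upk1b (-1.44 ± 0.20 SE, adjusted p = 0.0424 by limma) and Krt20 (-0.62 ± 0.08 SE, adjusted p = 0.0410), and 0 rose; 9 had ratios above 0 and 16 below, with a median of -0.049. Their summed linear level was 248955 to 328740 in cDKO and 264058 to 300778 in control. Of the mesenchymal markers 1 rose, the hedgehog receptor Ptch1 (0.55 ± 0.07 SE, adjusted p = 0.0424), and 12 of 14 were above 0. All 14 had an unadjusted p under 0.05, as did 13 of the 25 epithelial markers and 3847 of 19364 genes. The mesenchymal markers had a median of 0.35 (0.49 on slide 1 and 0.23 on slide 2) and sums of 275301 to 339326 in cDKO against 194837 to 300446 in control. Foxf2 was not well above background. The part of these markers in the Fgfr2 and Fgfr1 results was not tested.

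Markers of blood vessels, red cells and leukocytes had ratios mostly below 0. Of 10 endothelial markers 9 had ratios below 0 (median -0.29), 1 of them called lower (Emcn, -0.58), while Cdh5 was above 0 (0.080). Their summed level was 66321 to 78163 in cDKO against 79252 to 95405 in control. A linear sum weighs the brightest marker most. Here that was Egfl7, with uneven ratios of -0.53, -0.052, -0.55 and -0.086. Of 11 macrophage and leukocyte markers 10 were below 0 (median -0.24; 0 called, 7 at an unadjusted p under 0.05), with sums of 16486 to 20568 against 21819 to 25508. Erythroid markers had a median of -0.28 with 2 of 10 called lower (the embryonic globins Hba-x and Hbb-bh1) and sums of 302893 to 435869 against 406951 to 517715. Mesothelial markers had a median of -0.35 over 4 measured of 5, with 3 below 0 and 1 above. Msln at -0.82 was called lower, and sums were 8799 to 14152 against 8106 to 12170. The brightest of them, Wt1, was the 1 above 0 (0.26), with uneven ratios of 0.43, -0.37, 1.30 and -0.32. Smooth muscle markers had a median of 0.14 (11 of 12 measured, sums of 102606 to 139189 against 92786 to 121658), kidney markers 0.15 (10 of 14, 46784 to 63494 against 39702 to 53114) and neural and glial markers -0.020 (9 of 10, 74799 to 93551 against 70362 to 97495), with 0 called in each and 5, 3 and 3 at an unadjusted p under 0.05. The kidney genes Nphs1, Hnf4a, Umod and Slc12a1 were not well above background, while Six2, Cited1, Eya1 and Foxd1 were among those measured. What these shifts add to the receptor values was not tested.

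Other genes of the pathway were counted by lists of ligands, co-receptors, adaptors, response genes and other receptor tyrosine kinases, each gene through its brightest kept probe. Over all 19364 genes measured this way 91 rose, 49 fell and the median log2 ratio was 0.0093. Of the FGF ligands 14 of 22 were measured; 2 rose, 0 fell and the median was 0.11. Fgf9, a secreted ligand of the IIIc receptor forms, had ratios of 0.93, 0.74, 1.05 and 0.65 and a fitted log2 ratio of 0.84 ± 0.07 (SE; adjusted p = 0.0293 by limma). It was high on every array. Fgf12 gave 0.61, 0.62, 0.47 and 0.55, with a fitted log2 ratio of 0.56 ± 0.07 (SE; adjusted p = 0.0410); it encodes an FGF homologous factor, a protein that stays in the cell and acts on sodium channels rather than on these receptors. As 0 probes of the whole array passed without replicate 1, the calls of all genes named from these lists were lost there too. The 8 ligands not well above background were Fgf2, Fgf3, Fgf4, Fgf15, Fgf16, Fgf17, Fgf20 and Fgf21.

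Among receptor adaptors all 14 were measured, 13 had ratios above 0 with a median of 0.16, and 1 rose. That gene was Grb14, an adaptor that binds activated insulin and FGF receptors and dampens them, with ratios of 0.66, 0.64, 0.56 and 0.48 and a fitted log2 ratio of 0.59 (adjusted p = 0.0396 by limma). Of co-receptors and binding proteins 16 of 19 were measured and limma called 0, with 6 at an unadjusted p under 0.05 and a median of 0.16. The smallest p-values were those of Sdc2, a heparan sulfate proteoglycan of the syndecan family (0.38, adjusted p = 0.0835), and Gpc1, a glypican (0.63, adjusted p = 0.0949). Klb and Fgfbp1 were not well above background, and Anos1 was not found under that name.

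Genes induced by FGF signalling in many tissues are read as its output. Of these response genes 13 of 14 were measured and 0 were called (limma; 4 at an unadjusted p under 0.05), with a median of 0.12. The median differed by slide, at 0.26 on slide 1 and -0.019 on slide 2. The smallest p-values were those of Spry1, a feedback inhibitor (0.40, ratios of 0.43, 0.37, 0.59 and 0.22, adjusted p = 0.0792), and Etv5, an ETS transcription factor (0.35, ratios of 0.57, 0.48, 0.23 and 0.10, adjusted p = 0.155). Both were higher in cDKO on all 4 arrays without passing the test. Of other receptor tyrosine kinases 44 of 48 were measured, 1 rose and 0 fell, with a median of 0.058. The 1 was Ros1, a receptor of some epithelia, at 0.71 (ratios of 0.82, 0.56, 0.73 and 0.73, adjusted p = 0.0319 by limma). Its mean log2 level was low, at 7.65 in cDKO and 6.93 in control, which limits this call.

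**Figure D3:**
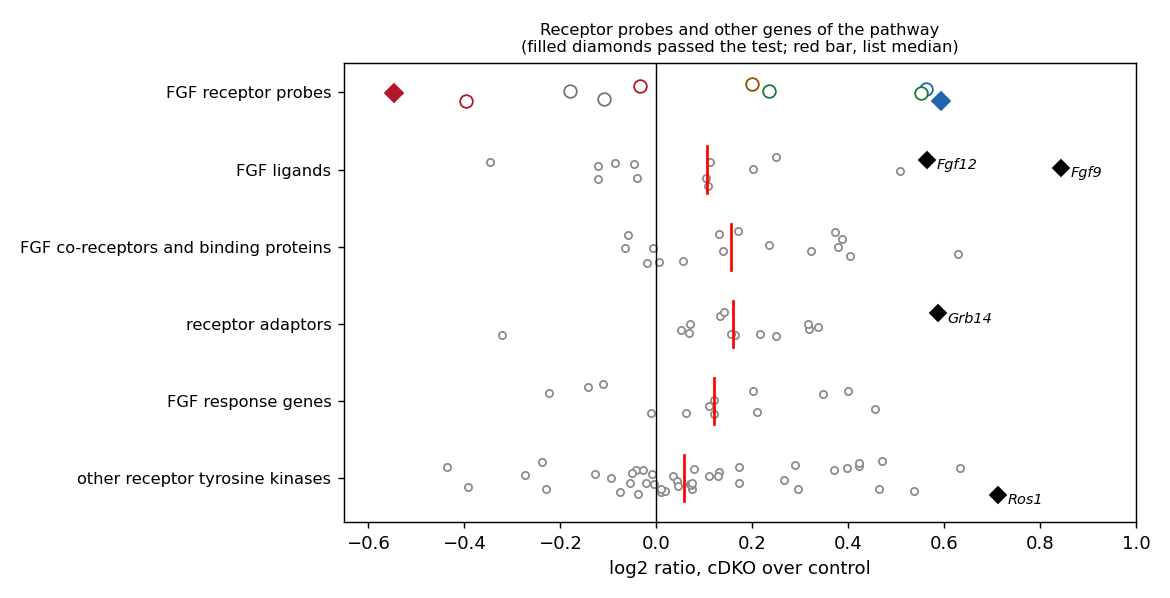
Log2 ratio of cDKO over control (horizontal axis) for the 10 kept receptor probes (top row) and for the measured genes of 5 pathway lists, 1 symbol per probe or gene. Filled diamonds passed the test at an adjusted p under 0.05, open circles did not, and red bars mark list medians, which lie between 0.058 and 0.16. Only Fgfr1 probe 1 passed on the left of 0.

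Genes whose ratios followed those of a receptor most closely were named by the root mean square difference over the 4 arrays, among 15813 genes; the 4 points share their samples, and the measure is a description. Nearest to Fgfr2 probe 1 were Cxadr (0.050), a tight junction protein and virus receptor, Nt5dc3 (0.064) and Elf5 (0.071), an ETS factor of epithelia. They had fitted log2 ratios of 0.57, 0.61 and 0.64. Only 9 genes lay within 0.1 of this pattern. For Fgfr1 probe 2 the nearest were Lyl1 (0.047), a transcription factor of blood and endothelial cells, Cygb (0.047), a globin of fibroblast-like cells, and Fam162b (0.057), with 4 genes within 0.1.

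For Fgfr4 probe 2 the nearest genes were Foxf1 (0.086), a hedgehog-responsive factor of visceral mesenchyme, Cadm3 (0.087), a cell adhesion molecule, and Pmaip1 (0.093), a p53 target that promotes cell death, with 5 genes within 0.1. Foxf1 had ratios of 0.62, 1.05, 0.047 and 0.66 on replicates 1 to 4. The patterns of Fgfr3 probe 3 and Fgfrl1 lay near 0 and were common: 473 genes lay within 0.1 of the former, led by Ankra2 (0.013), Sbds (0.018) and Snapin (0.022), and 231 within 0.1 of the latter, led by Rnpepl1 (0.025), Csnk1g2 (0.035) and Bag6 (0.036).

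The authors' deposited table of signed fold values, in which a positive value was taken as a higher level in cDKO, was set beside the ratios. For Fgfr2 probe 1 the authors' deposited table gave 1.61, 1.39, 1.49 and 1.52 on replicates 1 to 4. For Fgfr1 probe 1 the authors' deposited table gave -1.70, -1.49, -1.50 and -1.42, and for Fgfr4 probe 2 the authors' deposited table gave 1.54, 1.93, 1.03 and 1.45. Directions on each array were those of the ratios computed here. The direction of the authors' values was inferred from these ratios over all probes, and both come from the same arrays. The match in direction is therefore no independent check.

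**Figure D4:**
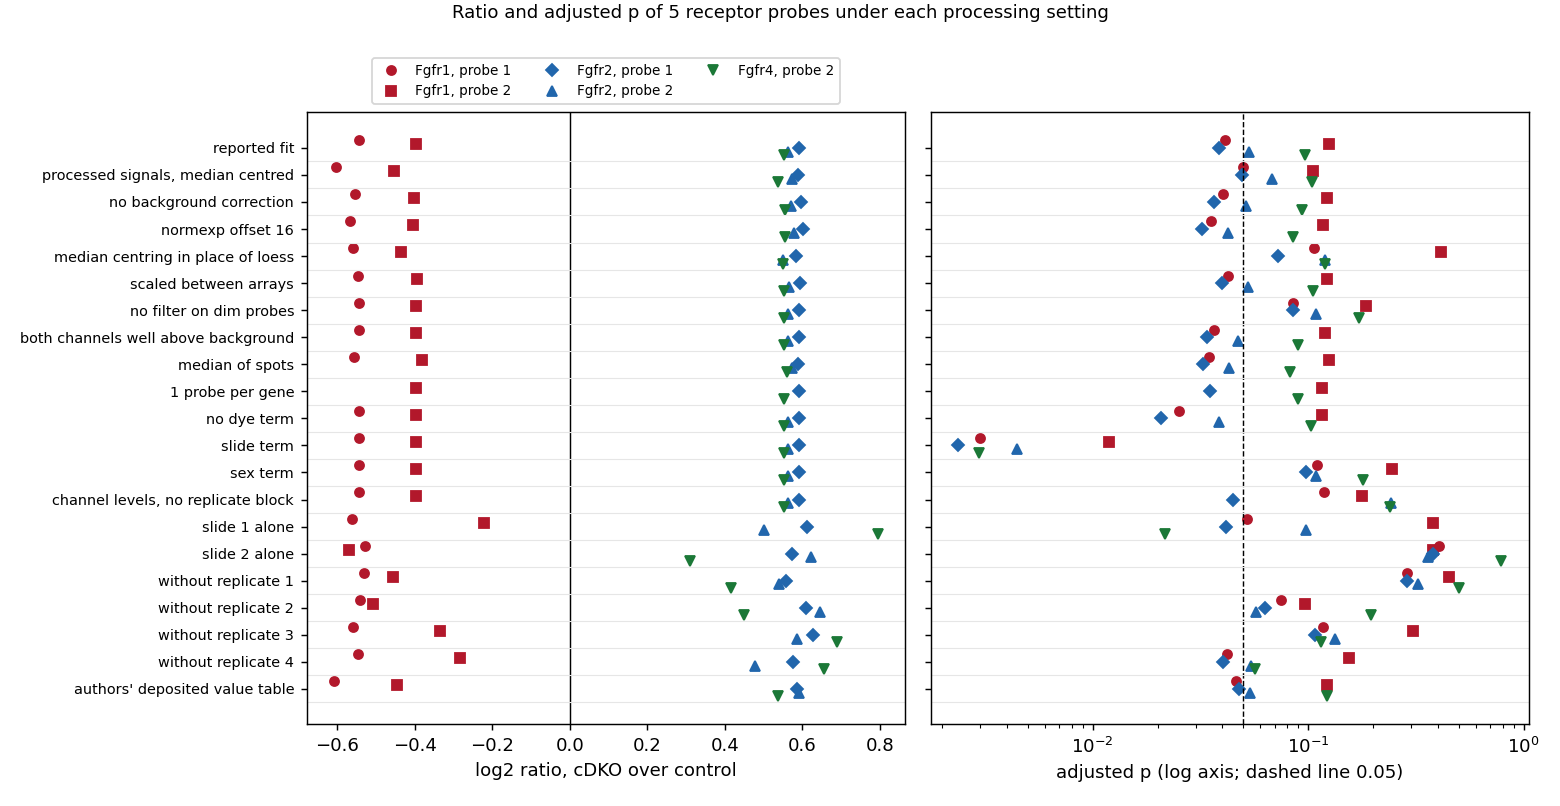
Log2 ratio of cDKO over control (left) and adjusted p on a log axis (right; dashed line at 0.05) of 5 receptor probes under the reported fit and each other processing setting, 1 row per setting. Ratios stay on their side of 0 in every row. Filters and model terms cannot move a ratio here, and ratios of 1 sign on all arrays cannot turn when arrays are left out. The adjusted p of Fgfr1 probe 1 runs from 0.00300 to 0.405 and that of Fgfr2 probe 1 from 0.00236 to 0.378.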

How the data were processed

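Two-colour Agilent arrays of 4 cDKO and control sample pairs were analysed, each labelled from 150 ng of total RNA. Per the file headers and the submitters' processing notes, spot intensity values came from Agilent Feature Extraction 10.7.3.1 and were not yet normalized between arrays; the deposited log10 ratio column was not used. The authors' deposited table holds a signed fold per probe and array (a score with no value between -1 and 1 and a median of 1); its normalization is not stated, its scale was inferred from the values and its direction from the correlation with the signed log2 ratios (0.952 to 0.967). The genotype of each channel came from the dye labels.

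Mean signals were corrected with normexp (offset 50) and normalized by loess (span 0.3, 4 iterations) within arrays in limma 3.58.1 (R 4.3.3), control and flagged spots having weight 0. Unflagged spots of a probe were averaged, and different probes of a gene were kept apart. Levels were then quantile-scaled on average intensity between arrays. The limma model had genotype and dye terms, with 2 residual degrees of freedom and 4.51 prior degrees of freedom. The script was tested on simulated ratios. Probes were named by accession (28328), symbol (3400) or synonym (243) in the RefSeq table, whose assembly is another build and whose coordinates were not used, and by the file otherwise (7458).

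The members, gene lists and tests were chosen with earlier results of these data known. Named were all receptor probes; from each pathway list its called genes or, where none was called, the pair with the smallest p; and the 3 nearest genes of each receptor. Marker genes named are the called ones. Some markers without a call are named too, namely Cdh5, Egfl7, Wt1, several kidney genes and Foxf2. Alternatives covered background correction, normalization, filters, spot averaging, model terms, single slides, each array left out and the authors' table. The sequence and position of 1 probe are not reported here.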

Additional observations from a re-analysis of the deposited data

How the results depend on the processing

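Over all alternatives, the log2 ratio of Fgfr1 probe 1 lay between -0.61 and -0.53 and passed in 10 of 19. That of Fgfr2 probe 1 lay between 0.56 and 0.63 and passed in 13 of 20. Filters, model terms and the fit with no replicate block leave the ratio unchanged in this balanced design and do not check it. The Fgfr1 probe 1 call was lost with median centring (-0.56, adjusted p = 0.106), no filter on dim probes (-0.54, 0.0853), a sex term (-0.54, 0.110), channel levels with no replicate block (-0.54, 0.119), slide 1 alone (-0.56, 0.0520), slide 2 alone (-0.53, 0.405) and without replicate 1, 2 or 3 (-0.56 to -0.53). The Fgfr2 probe 1 call was lost with median centring (0.58, 0.0727), no filter (0.59, 0.0853), a sex term (0.59, 0.0972), slide 2 alone (0.57, 0.378) and without replicate 1, 2 or 3 (0.56 to 0.63). Calls were gained by Fgfr1 probe 2 with a slide term (-0.40, 0.0120), by Fgfr2 probe 2 in 5 of 19 settings (adjusted p from 0.00446 to 0.0473) and by Fgfr4 probe 2 in 2 of 20 (slide term, 0.00298; slide 1 alone, 0.0216).

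The number of probes called, 164 in the reported fit, was 252 with processed signals, 294 with offset 16 and 317 with median centring. It was 1 with no filter, 257 with the median of spots, 291 without a dye term and 82 with no replicate block. With a slide term it was 2940 and with a sex term 2. On slide 1 alone it was 910, on slide 2 alone 0 (1714 at an unadjusted p under 0.05), and without 1 array 0 to 515. Fewer arrays or residual degrees of freedom enter the fits of single slides, without 1 array, and with a slide or sex term. The cause of the differences in number was not tested. Signs turned for Fgfr1 probe 3 (0.069 on slide 2 alone, 0.017 and 0.020 without replicates 1 and 2, range without 1 array -0.085 to 0.020), Fgfr3 probe 1 (0.079 on slide 2 alone, -0.40 to 0.045 without 1 array), Fgfrl1 (-0.0015 on slide 2 alone), the Fgfr2 probe pair (-0.035 to 0.058 without 1 array) and the Fgfr3 pair (-0.15 to 0.076). The Fgfr4 pair moved from -0.32 to -0.15 and the pair of Fgfr1 probes 1 and 2 from -0.15 to -0.066 without replicate 2. Signal over background limited Fgfr3 probe 2.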
